A study of Mus musculus with 8 samples.

Results

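The AP-1 transcription factors were followed here through 10 genes: the Fos proteins Fos, Fosb, Fosl1 and Fosl2, the Jun proteins Jun, Junb and Jund, the Batf proteins Batf and Batf3, and the small Maf protein Maff. They were found by their gene symbol among the probes of the arrays. All 10 genes had a probe, out of 27398 gene names on the array, and all 10 passed the filter on dim probes that left 15401 genes for testing. Fosl1 passed that filter only through the LPS groups. The genes had 12 probes in all, since Fosl2 and Junb had 2 each.

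Gene expression was measured on 8 one-colour Agilent arrays, 2 for each of 4 groups. Bone marrow of male C57BL/6Jax mice, from wild-type animals (WT) or animals lacking miR-155 (KO), was cultured for 7 days in 40 ng/mL GM-CSF, a growth factor that yields dendritic cells. All groups share this culture. The LPS groups were then stimulated for 16 h with LPS at 100 ng/mL, an endotoxin of Gram-negative bacteria sensed by Toll-like receptor 4, and CD86+ cells were sorted from them. The unstimulated groups received none, and CD86- cells were sorted. Per the series' design text, the sorted LPS cells were the adherent ones, whereas floating cells had been taken for stimulation. The LPS comparison is therefore also a comparison of sort gates, and the 2 cannot be told apart. The labels do not say whether the 2 arrays of a group came from separate mice or cultures, so the tests measure the spread between these samples, which may be technical. The arrays came from 2 slides, which are not balanced over the groups. Slide 1 held both unstimulated WT arrays, 1 WT LPS array and 1 unstimulated KO array. Slide 2 held 1 WT LPS array, 1 unstimulated KO array and both KO LPS arrays. Neither the knockout allele nor a probe of the deleted miRNA was analysed here, so the genotype labels were not checked at their target.

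AP-1 is a dimer of basic leucine zipper proteins. Jun proteins pair with each other or with Fos proteins, which cannot form stable dimers among themselves, and the dimers bind a short DNA motif in many genes of inflammation, growth and cell migration. Several Fos and Jun genes are immediate early genes: their transcripts appear within minutes of a stimulus and decay quickly. Batf and Batf3 lack a transactivation domain, pair with Jun proteins, and join IRF factors on composite DNA elements. Batf3 is required for the cross-presenting lineage of dendritic cells. Small Maf proteins such as Maff also lack a transactivation domain and pair with CNC factors. miR-155 is induced by LPS in myeloid cells, and Fos is a reported target of it in dendritic cells, which is the reason to read the family across the KO and WT groups.

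The mature miRNA deleted in the KO is shown because its seed, bases 2 to 8 in capitals, is what a target transcript pairs with. The RefSeq sequence on the plus strand of GRCm38.p6 lies at chr16:84714143-84714165.
mmu-miR-155-5p: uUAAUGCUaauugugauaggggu

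The complement of this seed was in 0 of the 12 AP-1 probes and in 175 of all 41174 probes (0.425%). Probes sample only 60 bases of a transcript, so this says nothing about target sites elsewhere in the transcripts.

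The promoters of Fos and Jun are shown because both transcripts were lower after LPS in the results that follow. Each stretch is the 250 bases before the RefSeq start of transcription (GRCm38.p6), at chr12:85473640-85473889 on the plus strand for Fos and at chr4:95052223-95052472 on the minus strand for Jun. Capitals mark matches, on either strand, to the AP-1 motif TGANTCA, the cyclic AMP response element-like motif TGACNTCA or its half-site TGACG; the half-site can lie within the longer motif.
Fos promoter: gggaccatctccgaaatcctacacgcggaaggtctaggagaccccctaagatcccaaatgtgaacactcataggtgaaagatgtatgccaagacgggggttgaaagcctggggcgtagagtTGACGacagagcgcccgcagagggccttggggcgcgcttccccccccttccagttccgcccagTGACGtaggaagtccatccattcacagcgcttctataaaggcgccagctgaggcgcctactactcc
Jun promoter: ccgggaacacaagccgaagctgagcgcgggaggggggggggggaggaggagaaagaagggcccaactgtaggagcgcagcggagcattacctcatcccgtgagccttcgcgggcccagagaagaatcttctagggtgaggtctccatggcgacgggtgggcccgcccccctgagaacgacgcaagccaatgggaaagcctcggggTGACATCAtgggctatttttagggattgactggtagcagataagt

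The promoter table held 9 of the 10 genes, with 11 starts because Maff had 3. The Fos stretch held the half-site at 2 positions, 129 and 66 bases before the start, and the Jun stretch held TGACATCA, 45 bases before the start. TGACNTCA was found before 3 of the 11 starts, that of Jun and 2 of Maff, beside 7.49% of all 32851 promoters. The half-site was found before 6 of the 11 starts, those of Fos, Fosb, Junb and Batf and 2 of Maff, beside 17.8% of all promoters. TGANTCA was found in 0 of the 11 stretches, against 6.75% of all promoters. The TATA box letters TATAAA were found before Fos, against 12.4% of all promoters. A match of letters is a description and not evidence of a bound site.

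Between 50.8% and 58.3% of an array's spots stood well above background. The processed signal had its 75th percentile at 474 to 750 units. Values are given as scaled log2 signal: the log2 of the processed signal minus the 75th percentile of its array, so 0 is the brightness of that percentile and 1 unit is a doubling. Levels of different genes are not compared, because probes differ in how strongly they bind. The first principal component, with 75.6% of the variance, separated LPS from unstimulated arrays, and the second, with 9.55%, separated arrays numbered 1 from arrays numbered 2. All 11 dendritic cell markers were well above background on all 8 arrays, with a summed level of 9.98 to 10.7 scaled log2. Of these 11, 4 rose and 0 fell with LPS in each genotype, where 20.2% of all genes were called in WT and 20.8% in KO. Their mean level was 2.40 to 2.80 on unstimulated arrays and 3.95 to 4.95 on LPS arrays, while the brightest genes set their sum. The list includes Cd86, the marker of the sort gates, so neither the count nor the mean level is independent of the sorting. Markers of some other cells also moved with LPS. Of 6 stromal markers, 4 passed the filter. Their summed level was -3.32 to -2.37 on unstimulated arrays, with 0 to 2 of the 4 well above background. On LPS arrays it was 1.22 to 3.70, with all 4 well above background. Of 6 mast cell and basophil markers, 5 passed the filter. They summed to -1.20 to 1.46 on unstimulated arrays, with 2 to 5 well above background. On LPS arrays they summed to -3.66 to -2.62, with 0 to 3 well above background. A gene could pass the filter through the groups of 1 state alone, which can build part of such a contrast into the sums. Of 10 macrophage markers, 2 rose and 5 fell in each genotype, with a median of -1.74 in WT and -1.38 in KO, although their summed level, which the brightest genes set, was 7.69 to 8.10 without LPS and 9.51 to 10.1 with it. Of 5 monocyte markers, 0 rose and 2 fell in each genotype, with medians of -2.87 and -2.74, and their summed level was 5.19 to 6.47 without LPS and 4.20 to 5.74 with it. The part of these cells in the AP-1 differences was not tested. In sorted populations measured in bulk, fewer cells of a type and less RNA per cell cannot be told apart.

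**Figure D1:**
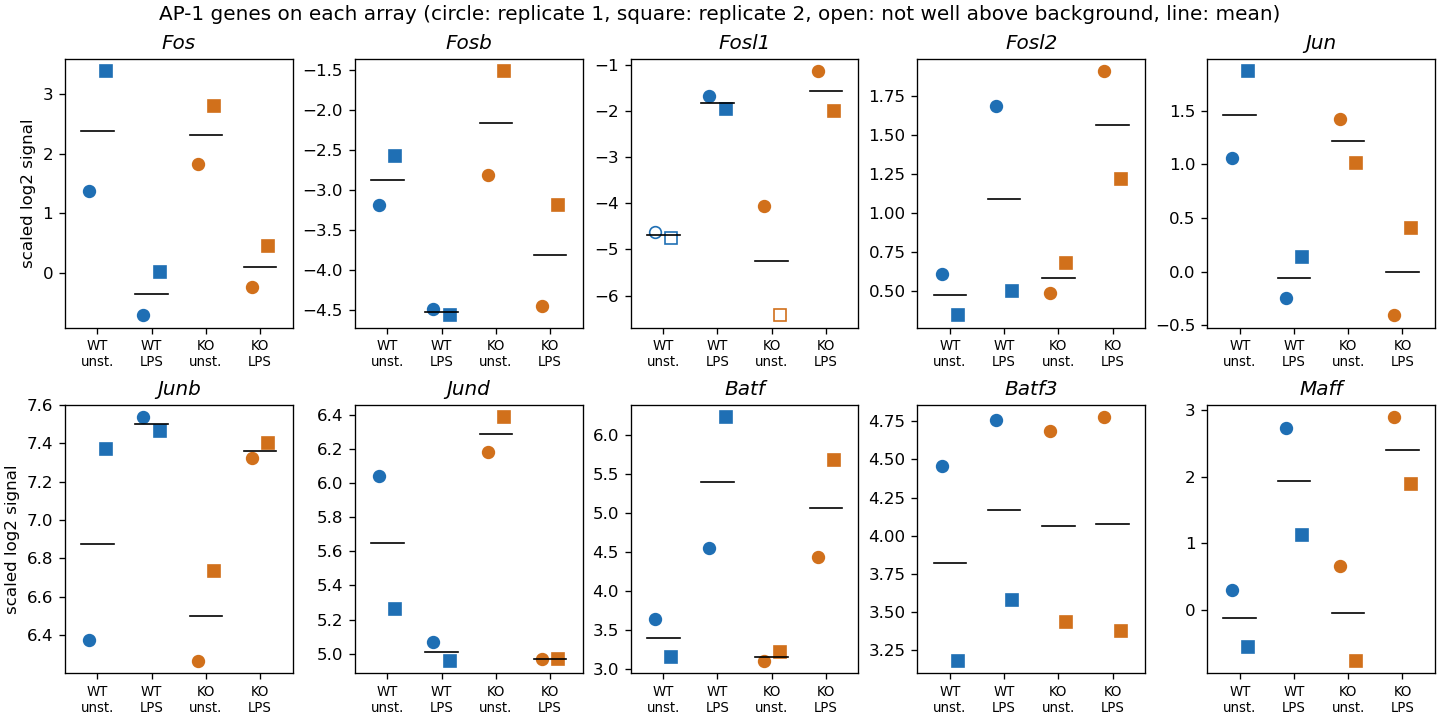
Scaled log2 signal (y axis) of each AP-1 gene in the 4 groups (x axis), WT in blue and KO in orange, with 1 point per array (circle for replicate 1, square for replicate 2), the group mean as a line, and open points for spots not well above background. Fos, Fosb, Jun and Jund lie lower on all 4 LPS arrays than on all 4 unstimulated arrays, and Fosl1, Batf and Maff lie higher. For Fosb this is a near tie, with KO LPS replicate 2 at -3.184 and WT unstimulated replicate 1 at -3.181.

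The LPS response asked which AP-1 transcripts differed after 16 h. In WT cells, Fos and Jun were called lower and Fosl1 higher. In KO cells, Jund was called lower and Fosl1 higher. Fos, Jun and Jund were lower on average in both genotypes, and no difference between the LPS responses was called. Genes were called at a limma adjusted p under 0.05, adjusted over all genes. In WT, 3 of the 10 genes were called, while 20.2% of all 15401 genes were. In KO, 2 of the 10 were called, while 20.8% of all genes were. Both counts include Fosl1, which passed the filter only through the LPS groups, where it was high. The share of AP-1 genes called in each genotype was thus near that of all genes. The median absolute log2 difference of the 10 genes was 1.59 in WT and 1.49 in KO, beside 0.61 and 0.60 over all genes. An absolute difference also grows with the spread between arrays. The SE of these differences ran from 0.31 for Jund to 0.73 for Batf3, beside a median of 0.36 over all genes. The median signed difference of the 10 genes was 0.48 in WT and 0.44 in KO, beside 0.01 and 0.05 over all genes, since the 10 genes differed in both directions. The 2 LPS arrays did not overlap the 2 unstimulated arrays for 8 of the 10 genes in WT, beside 62.1% of all genes, and for 9 in KO, beside 63.6%.

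With 2 arrays a group, the response was also averaged over both genotypes in the same fit, a comparison added after the responses of WT and KO had been seen. There, 7 of 10 AP-1 genes were called, 4 lower and 3 higher, beside 37.4% of all genes (19.0% lower and 18.5% higher). The 3 higher include Fosl1, which passed the filter only through the LPS groups, so its call is not independent of the filter. The 7 genes are those whose 4 LPS arrays do not overlap the 4 unstimulated arrays, a property of 44.1% of all genes. For Fosb the separation is a near tie, -3.184 on KO LPS replicate 2 against -3.181 on WT unstimulated replicate 1. With the slide as a block, 5 of the 7 kept their call, and Fosb and Jund did not.

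**Figure D2:**
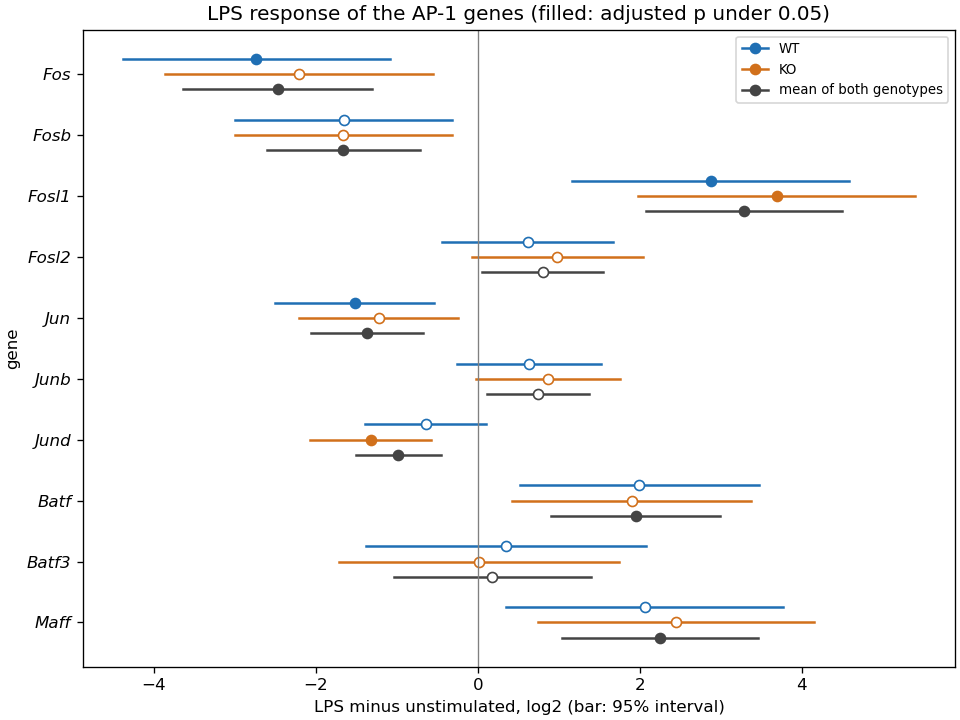
Difference between LPS and unstimulated arrays (x axis, log2) for each AP-1 gene (y axis) in WT, in KO and as the mean of both genotypes, with bars for the 95% interval of the fit and filled points for an adjusted p under 0.05. Fos, Fosb, Jun and Jund lie left of 0 in all 3 estimates and Fosl1, Batf and Maff right of it, and the WT and KO intervals of each gene overlap.

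Fos encodes c-Fos, the partner of Jun proteins in the classical AP-1 dimer. Its probe lies at chr12:86817900-86817959 (mm9, as the scanner files give it; the exon or untranslated region of each probe was not determined here). Its scaled log2 signal was 1.38 and 3.38 on the unstimulated WT arrays and -0.72 and 0.01 on the WT LPS arrays. In KO, it was 1.83 and 2.79 without LPS and -0.24 and 0.44 with LPS. Every LPS array was below every unstimulated array, in both genotypes. The WT difference was -2.73 ± 0.70 (SE; adjusted p = 0.0352), a 6.64-fold fall. The KO difference of -2.20 ± 0.70 did not pass the threshold (adjusted p = 0.0674). The mean over both genotypes was -2.47 ± 0.49 (adjusted p = 0.00828).

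The Fos call in WT rested on single arrays. It was lost without WT unstimulated replicate 2 (-1.73, adjusted p = 0.106), without WT LPS replicate 1 (-2.37, 0.154) or without WT LPS replicate 2 (-3.10, 0.0816). Without either unstimulated KO array, which enters only through the shared spread, the adjusted p was 0.0507. For the same reason the KO difference was called without either unstimulated WT array (adjusted p = 0.0265). With the slide as a block, the WT difference was -2.31 (adjusted p = 0.0947), and within slide 1 it was -2.37 (0.172). Within slide 2, which holds 1 unstimulated and both LPS arrays of KO, the KO difference was -1.72 (adjusted p = 0.140). The call for the mean of both genotypes held without each array in turn, at -2.97 to -1.97.

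Fos and Jun probes are printed up to 10 times on each array, which separates the noise of a spot from the spread between samples. Within an array, the SD over these spots was 0.06 to 0.10 log2 for Fos and 0.05 to 0.09 for Jun. The 2 unstimulated WT arrays differed by 2.0 log2 units in Fos, far beyond that spot noise. The spread behind the Fos test thus lies between arrays and not between spots.

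**Figure D3:**
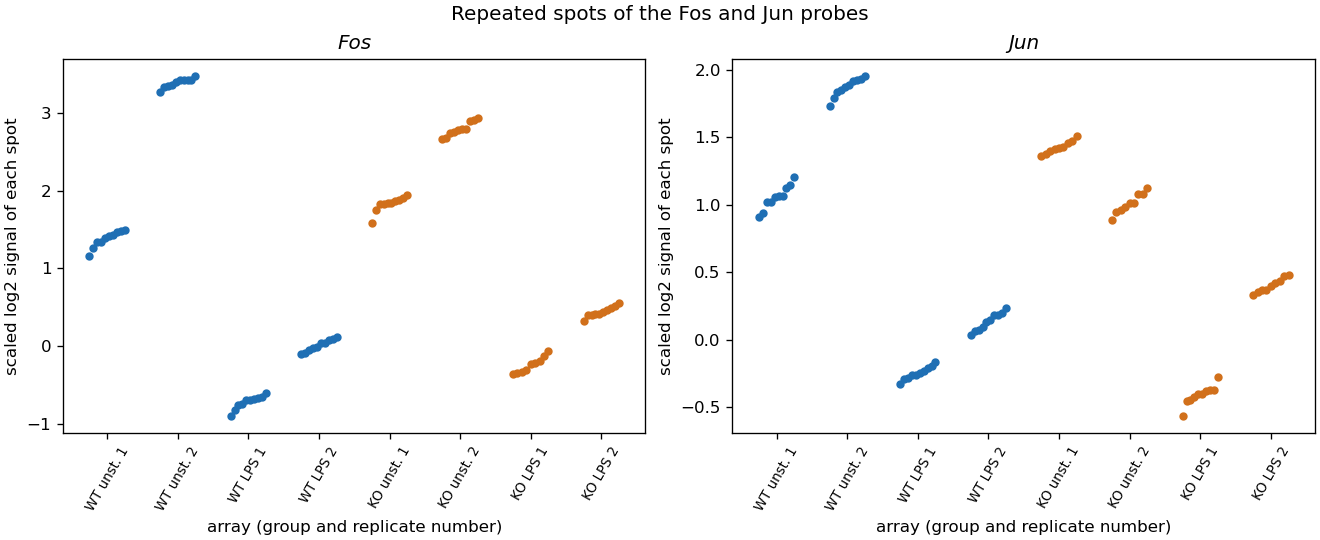
Scaled log2 signal (y axis) of each repeated spot of the Fos probe (left) and the Jun probe (right) on each array (x axis), WT in blue and KO in orange. The spots of an array are drawn from lowest to highest and form a tight column, and the columns of the 2 unstimulated WT arrays lie 2.0 apart for Fos.

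Fosb encodes FosB, a close relative of c-Fos, and its probe lies at chr7:19888477-19888536. Its signal was -3.18 and -2.57 in unstimulated WT cells and -4.49 and -4.57 after LPS. In KO it was -2.80 and -1.51 without LPS and -4.45 and -3.18 with it. The gene was dim on LPS arrays, at 21.3 to 67.2 units of processed signal, though well above background on all 8 arrays. The difference was -1.65 ± 0.56 in WT (adjusted p = 0.0850) and -1.66 ± 0.56 in KO (0.0829), and neither was called. The mean over both genotypes was called (-1.66 ± 0.40, adjusted p = 0.0171), but this call was lost without WT unstimulated replicate 2 (-1.5, 0.0532) and with the slide as a block (-1.35, 0.0890). With normexp background correction as planned, the KO value turned to 0.25, and the mean was -0.27 (adjusted p = 0.746). With the same correction after 4 and 18 aberrant spots on 2 arrays were left out, the mean was -0.73 (adjusted p = 0.0430).

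Fosl1 encodes Fra-1, a Fos protein without the C-terminal transactivation domain of c-Fos, and its probe lies at chr19:5455496-5455555. It rose in both genotypes. In WT its signal was -4.62 and -4.75 without LPS, not well above background on either array, and -1.67 and -1.96 with LPS. The WT rise of the means was therefore at least 6.20-fold. This bound is the LPS mean over the lowest signal well above background on each unstimulated array, or the probe's own signal where higher. It makes no allowance for the spread between arrays, and neither do the other folds given below as at least a value. The fitted WT difference was 2.87 ± 0.72 (95% interval 1.16 to 4.58, adjusted p = 0.0338).

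In KO, Fosl1 was -4.07 and -6.43 without LPS, the first of these well above background, and -1.13 and -1.99 with LPS. The KO difference was 3.69 ± 0.72 (adjusted p = 0.0139). Only 1 of the 4 unstimulated arrays was thus well above background, so the size of the KO difference and of the mean over both genotypes, 3.28 ± 0.51 (adjusted p = 0.00301), rests on signals near background. The KO difference was 2.51 without KO unstimulated replicate 2, which read 7.6 units, and 4.87 without KO unstimulated replicate 1. The WT call was lost without any 1 of the 4 WT arrays, with adjusted p from 0.101 to 0.132, and the KO call without KO LPS replicate 1 (3.26, 0.0675). With the slide as a block, the WT difference was 2.21 (adjusted p = 0.0661) and the KO difference 3.02 (0.0270). With no filter on dim probes, the limma adjusted p was 0.0570 in WT and 0.0241 in KO. Within slide 1, the WT difference was 2.73 (adjusted p = 0.0250), and within slide 2 the KO difference was 2.51 (0.101). Normexp correction, which adds an offset of 50 units, gave a WT difference of 1.22 (adjusted p = 0.291), and 1.38 (0.0182) without the aberrant spots, where the mean of both genotypes was 1.62.

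Fosl2 encodes Fra-2, which like Fra-1 lacks that domain, and its 2 probes gave different answers. The brighter probe, at chr5:32459624-32459683, read 0.61 and 0.34 without LPS and 1.69 and 0.50 with LPS in WT, and 0.48 and 0.68 against 1.91 and 1.22 in KO. WT arrays of this probe overlapped between the groups, and KO arrays did not. Its differences of 0.62 ± 0.44 in WT (adjusted p = 0.373) and 0.98 ± 0.44 in KO (0.171) were not called, nor was their mean of 0.80 ± 0.31 (0.0870). That mean was called without WT LPS replicate 2 (1.1, adjusted p = 0.0286).

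The dimmer Fosl2 probe is printed because it was called where the brighter one was not. It lies at chr5:32455088-32455147 (mm9, plus strand).
Fosl2 dimmer probe: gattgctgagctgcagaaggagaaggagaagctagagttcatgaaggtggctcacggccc

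On this probe the signal was -5.05 and -4.81 without LPS and -2.54 and -3.55 with LPS in WT, where neither unstimulated array was well above background. In KO, the dimmer probe read -4.66 and -4.47 without LPS and -2.58 and -3.36 with it. In a fit over all 23738 probes past the filter, where 19.2% were called in WT and 19.6% in KO, the WT rise was at least 2.64-fold (fitted 1.89 ± 0.42, adjusted p = 0.0224). The KO rise was 1.60 ± 0.42 (adjusted p = 0.0385). Both Fosl2 probes were higher after LPS on average, and they differ in whether the rise passed the test.

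Jun encodes c-Jun, the main target of the JNK kinases, and its probe lies at chr4:94715864-94715923. Its signal was 1.06 and 1.87 in unstimulated WT cells and -0.25 and 0.13 after LPS. In KO it was 1.43 and 1.01 without LPS and -0.41 and 0.40 with it. LPS and unstimulated arrays did not overlap in either genotype. Jun fell in WT by 1.52 ± 0.41 on the log2 scale (SE; adjusted p = 0.0435), a 2.87-fold change. The KO difference of -1.22 ± 0.41 was not called (adjusted p = 0.0822), and the mean of both was -1.37 ± 0.29 (0.0108).

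The Jun call in WT was lost without any 1 of the WT arrays (-1.93 to -1.11, adjusted p from 0.0510 to 0.186) and without either unstimulated KO array (0.0632). With the slide as a block, the WT difference was -1.53 (adjusted p = 0.0954), within slide 1 it was -1.33 (0.231), and within slide 2 the KO difference was -1.43 (0.207). The mean over both genotypes was called without each array in turn, at -1.57 to -1.17.

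Junb encodes JunB, a Jun protein with weaker transactivation than c-Jun. Its 2 probes overlap, at chr8:87500881-87500940 and chr8:87500843-87500902. The brighter probe read 6.37 and 7.37 in unstimulated WT cells and 7.54 and 7.46 after LPS, and 6.26 and 6.73 against 7.32 and 7.40 in KO. The unstimulated WT array at 7.37 was below both WT LPS arrays but above the KO LPS array at 7.32. The differences were 0.63 ± 0.37 in WT (adjusted p = 0.284) and 0.86 ± 0.37 in KO (0.156), with a mean of 0.75 ± 0.26 (0.0647), and none was called. The mean passed the test without WT unstimulated replicate 2 (0.99, adjusted p = 0.0180). On the second Junb probe, in the fit over all probes, the mean was 0.99 ± 0.29 (adjusted p = 0.0344), beside 36.6% of all probes called.

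Jund encodes JunD, the Jun protein that most resting cells express, and its probe lies at chr8:73224436-73224495. Its signal was 6.04 and 5.26 in unstimulated WT cells and 5.07 and 4.96 after LPS. In KO it was 6.18 and 6.39 without LPS and 4.97 and 4.97 with it. The 4 LPS arrays lay within 0.11 of one another, and the spread was among the unstimulated arrays. Jund fell in KO by 1.32 ± 0.31 on the log2 scale (SE; adjusted p = 0.0274), a 2.50-fold change. The WT difference of -0.64 ± 0.31 was not called (adjusted p = 0.203), and the mean of both was -0.98 ± 0.22 (0.0138).

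The Jund call in KO was lost without any 1 of the 4 KO arrays, at -1.42 to -1.22 with adjusted p from 0.0713 to 0.128. With the slide as a block, the KO difference was -1.29 (adjusted p = 0.0695), within slide 2 it was -1.22 (0.133), and the WT difference within slide 1 was -0.69 (0.562). With that block, the mean of both genotypes for Jund was -0.96 (adjusted p = 0.0572).

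Batf encodes a partner of Jun proteins in lymphocytes and dendritic cells, and its probe lies at chr12:87049872-87049929. Its signal was 3.64 and 3.16 in unstimulated WT cells and 4.55 and 6.23 after LPS, and in KO 3.10 and 3.21 against 4.44 and 5.68. Every LPS array was above every unstimulated one, and in both genotypes the LPS array numbered 2 was the highest. The differences of 1.99 ± 0.62 in WT (adjusted p = 0.0653) and 1.90 ± 0.62 in KO (0.0744) were not called. Without WT LPS replicate 1, the array with the lower signal, the WT difference was 2.83 and was called (adjusted p = 0.0324), and without WT LPS replicate 2 it was 1.16 and was not (0.249). The KO difference was 1.28 without KO LPS replicate 2 (adjusted p = 0.308), and it was called without either WT LPS array (0.0388), which enters only through the shared spread. Their mean of 1.95 ± 0.44 was called (adjusted p = 0.0134), also without each array in turn (1.53 to 2.37). Within slide 1, the WT difference was 2.83 (adjusted p = 0.0262), and within slide 2 the KO difference was 1.96 (0.205).

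Maff was probed at chr15:79189442-79189501. Its signal was 0.30 and -0.56 in unstimulated WT cells and 2.74 and 1.13 after LPS, and in KO 0.67 and -0.76 against 2.90 and 1.89. The 4 LPS arrays were all above the 4 unstimulated ones. The differences of 2.06 ± 0.72 in WT (adjusted p = 0.0905) and 2.44 ± 0.72 in KO (0.0542) were not called, though the KO difference was without either WT LPS array (0.0427). Their mean of 2.25 ± 0.51 was called (adjusted p = 0.0135), also without each array in turn (1.85 to 2.65). The mean was 1.49 with the slide as a block (adjusted p = 0.0391). Within slide 1, the WT difference was 1.25 (adjusted p = 0.268), and within slide 2 the KO difference was 1.73 (0.195).

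Batf3 was probed at chr1:192932528-192932587 and showed no detectable LPS difference. Its signal was 4.46 and 3.18 in unstimulated WT cells and 4.75 and 3.58 after LPS, and in KO 4.69 and 3.43 against 4.78 and 3.38. The differences were 0.35 in WT (95% interval -1.38 to 2.07, adjusted p = 0.774) and 0.02 in KO (-1.71 to 1.74, adjusted p = 0.989). These intervals are wide enough to hold a rise or a fall of more than 1 log2 unit. The spread of Batf3 followed the replicate number: array 1 read higher than array 2 in all 4 groups, by 1.18 to 1.40.

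Maff, Fosl1 and Fos also differed by replicate number in all 4 groups. Maff was higher on the array numbered 1, by 0.86 to 1.61, as was Fosl1, by 0.13 to 2.37. Fos was lower on that array, by 0.68 to 2.0. The other 6 genes did not keep one sign over the 4 groups. The labels do not say what the replicate number stands for.

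**Figure D4:**
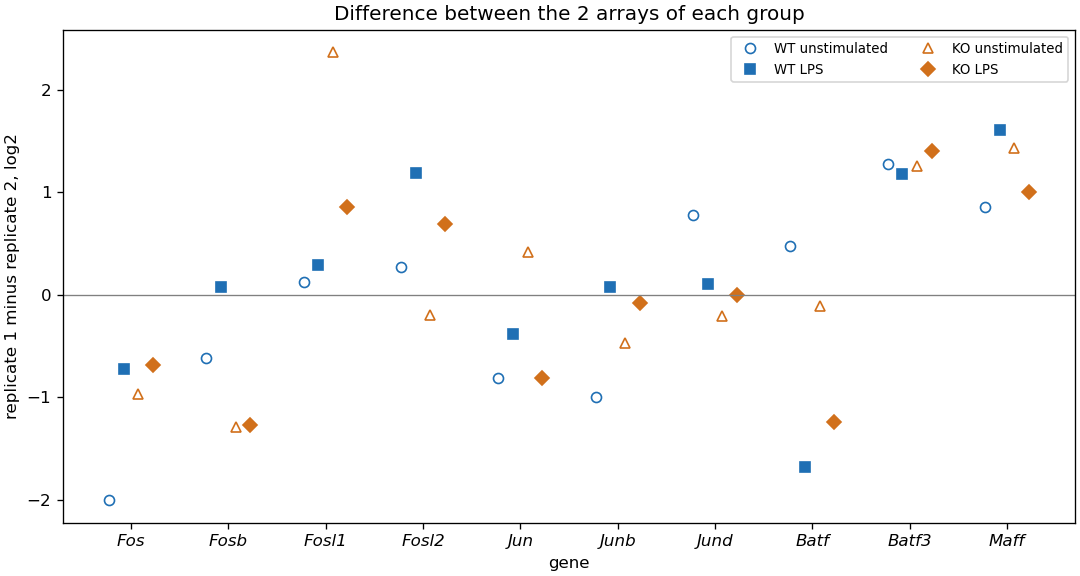
Difference between the array numbered 1 and the array numbered 2 (y axis, log2) of each AP-1 gene (x axis), with 1 marker per group (WT blue, KO orange, filled for LPS). Batf3, Maff and Fosl1 lie above 0 in all 4 groups and Fos below 0 in all 4, with gaps of 1.18 to 1.40 for Batf3.

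The KO and WT groups were compared to ask whether the family, and Fos as a reported miR-155 target, differed without the miRNA. None of the 10 genes was called in unstimulated cells, where 0.234% of all genes were called, or after LPS, where 0.0260% were. None was called for the mean of both states (0.149% of all genes) or for the difference between the LPS responses (0.0455%). At an unadjusted p under 0.05, limma also gave 0 of 10 in each of these 4 comparisons, where 2.56%, 1.23%, 2.64% and 1.42% of all genes passed.

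For Fos, KO minus WT was -0.07 ± 0.70 in unstimulated cells, with a 95% interval of -1.72 to 1.58. Over 10 alternatives other than leaving out an array, this value ran from -0.08 to 0.41 and changed sign in 5. After LPS, it was 0.46 ± 0.70, with an interval of -1.19 to 2.11. The KO and WT arrays overlapped in both states. The Fos intervals hold a rise as well as a fall in KO of more than a log2 unit, and these arrays do not show that Fos is alike in both genotypes. The difference between the LPS responses, KO minus WT, was 0.53 ± 0.98 (interval -1.81 to 2.86), and it turned to -0.47 without WT unstimulated replicate 2.

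Of the other members, Jund had the lowest unadjusted p in unstimulated cells. It was 0.63 ± 0.31 higher in KO on the log2 scale (95% interval -0.11 to 1.38, unadjusted p = 0.0841, limma adjusted p = 0.9998), and the KO and WT arrays did not overlap. The KO response of Jund was larger in size, with a difference between the responses of -0.68 ± 0.44 (interval -1.74 to 0.38). The genotypes' arrays did not overlap for 1 of 10 genes without LPS, Jund, beside 21.0% of all genes. After LPS they did not overlap for 2 of 10, Fosb (higher in KO) and Junb (lower in KO on its brighter probe), beside 21.4%. The second Junb probe went the other way after LPS, 0.20 ± 0.41 higher in KO, and its arrays overlapped. Fosb read 0.72 ± 0.56 higher in KO without LPS and 0.71 ± 0.56 higher with it, with intervals of -0.62 to 2.05 and -0.63 to 2.05. The median difference of the 10 genes was 0.00 without LPS and 0.15 with it, beside -0.04 and -0.01 over all genes.

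**Figure D5:**
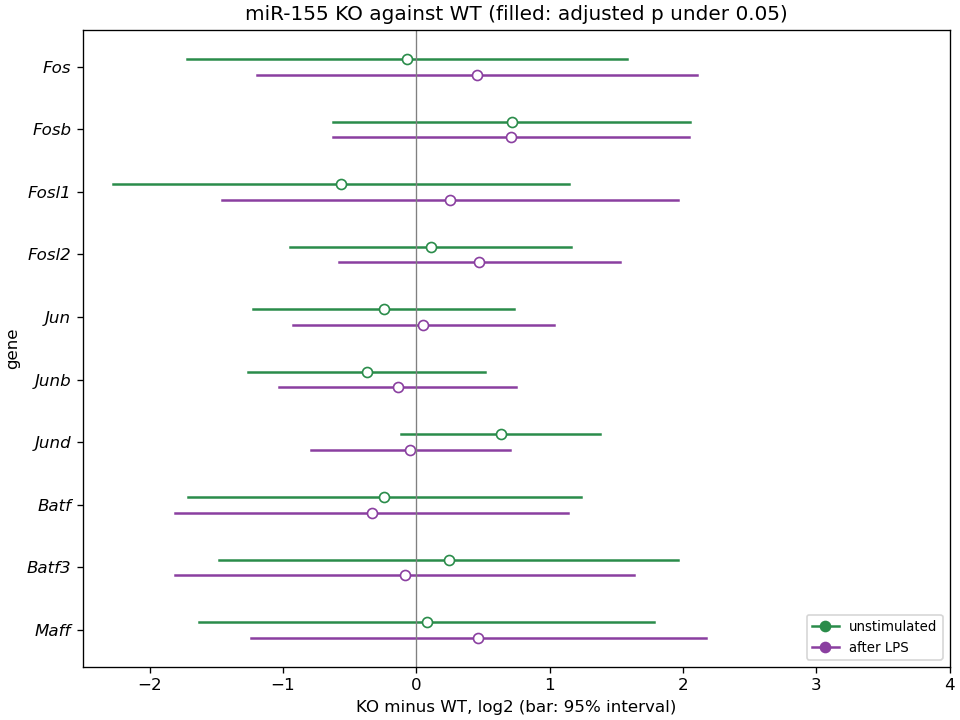
Difference between KO and WT (x axis, log2) for each AP-1 gene (y axis) in unstimulated cells and after LPS, with bars for the 95% interval of the fit; no point is filled, since no adjusted p was under 0.05. Every interval includes 0, and for Fos they run from -1.72 to 1.58 and from -1.19 to 2.11.

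Other genes of the pathway were read from lists chosen for their known roles. Of 32 other basic leucine zipper genes tested, 2 rose and 4 fell in WT after LPS, and 5 rose and 4 fell in KO, with medians of 0.21 and 0.20. Of all genes, 20.2% were called in WT and 20.8% in KO, so 6 and 9 of 32 are not far from that share. Batf2, a relative of Batf, rose by 3.28 ± 0.29 in WT and 3.05 ± 0.29 in KO. Nfe2, a partner of small Maf proteins, was -4.59 ± 0.58 and -5.03 ± 0.58. Cebpa, a factor of myeloid differentiation, also fell in both genotypes, at -3.19 ± 0.57 and -3.23 ± 0.57. The adjusted p of these 3 genes lay between 0.000911 and 0.0110.

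Of 31 kinases and phosphatases upstream of AP-1, 5 rose and 2 fell in each genotype, with medians of 0.01 and 0.02, near the 20.2% and 20.8% of all genes called. Dusp4, a phosphatase of MAP kinases, rose at least 19.6-fold in WT and at least 46.6-fold in KO from a level not well above background. Dusp16, a phosphatase of JNK and p38, rose by 3.69 and 3.38, each ± 0.59. Map2k6, which activates p38, was -3.26 ± 0.68 and -3.53 ± 0.68, and Rps6ka1, a kinase downstream of ERK, was -1.35 ± 0.37 and -1.46 ± 0.37. Of 24 genes that switch on Fos or are immediate early genes themselves, 2 rose and 2 fell in each genotype, also near that share, with medians of 0.27 and 0.24. Gadd45b rose by 4.92 ± 0.61 and 5.77 ± 0.61, and the nuclear receptor gene Nr4a3 at least 6.69-fold and 17.8-fold. Klf4 (-4.40 and -4.60) and Myc (-3.69 and -4.06) fell in both genotypes. Fos was also lower in both, at -2.73 and -2.20, though it was called only in WT.

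Of 26 reported AP-1 target genes, 10 rose and 0 fell in each genotype, with a median of 0.87 in WT and 1.09 in KO, beside 20.2% and 20.8% of all genes called in either direction. For the mean of both genotypes, 11 rose and 2 fell, beside 18.5% of all genes higher and 19.0% lower. Il6 rose by 12.73 ± 0.25 and 13.17 ± 0.25 on the log2 scale, where 1 of 2 unstimulated WT arrays was well above background, and Ptgs2, the inducible cyclooxygenase, by 11.02 ± 0.93 and 11.38 ± 0.93, where 1 of 2 unstimulated arrays in each genotype was. Lcn2, an iron-scavenging protein, rose at least 1538-fold and 2490-fold, and Il1b by 6.11 ± 0.74 and 6.69 ± 0.74. Neither unstimulated group had Ptgs2 or Lcn2 well above background on each of its arrays, so both passed the filter only through the LPS groups. The target genes named here belong to many inflammatory pathways, and AP-1 is only one of their reported regulators. Of 14 partners of Batf and Batf3 or markers of the lineage that needs Batf3, 2 rose and 5 fell in WT and 1 rose and 5 fell in KO, beside the same shares of all genes, with medians of 0.28 and -0.24. Clec9a, a receptor of that lineage, fell at least 3.99-fold and 5.61-fold, and Cadm1, an adhesion molecule of it, at least 3.77-fold and 4.47-fold. Itgae, the CD103 integrin chain, was -6.30 ± 1.01 and -5.84 ± 1.01, with 1 of 2 LPS arrays well above background in each genotype. Nfatc2, a factor that cooperates with AP-1, was -1.90 ± 0.40 in WT and fell at least 5.71-fold in KO. The Batf3 transcript itself did not change detectably. None of these 5 lists had a gene called between KO and WT in either state, where 0.234% of all genes were called without LPS and 0.0260% with it.

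The 5 genes whose pattern over the 8 arrays was most like that of Fos, among 15352 genes, were Peg12, Slc43a2, Arhgef4, Polg2 and Arl11. Their root mean square differences from Fos, after each gene was centred on its own mean, were 0.21, 0.31, 0.34, 0.34 and 0.35 log2. All 5 were lower after LPS, by differences of -3.08 to -2.45 in WT and -2.61 to -1.62 in KO. Their choice by likeness to Fos on these same arrays fixed that direction in advance. The nearest AP-1 gene to Fos by this measure was Fosb, at 0.66, and the closest pair within the family was Fosl2 and Junb, at 0.54.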

How the data were processed

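RNA from 8 samples was hybridised to one-colour Agilent arrays. The deposited processed signal intensity of each spot came from Agilent Feature Extraction 10.5.1.1 with mm9 probe positions, per the file headers, and is background-subtracted. The deposited series table holds log2 values of the same arrays (column medians 4.97 to 5.29) and served as an alternative; set against the scanner signals, each column tracked its array's log2 signal with a constant shift that gave all columns the same 75th percentile, so scale and direction are known. Control and outlying spots were left out, spots of a probe averaged, and log2 intensity scaled to each array's 75th percentile. A probe was kept where 1 group or more had it well above background on each of its 2 arrays, and each gene took its brightest probe. limma 3.58.1 (R 4.3.3) fitted 4 group means over 8 arrays, with Benjamini-Hochberg adjustment over all genes at 0.05, and was tested on simulated data. No test had more than 4 residual degrees of freedom before moderation, so the number of arrays limits the precision. Besides the 10 members, the 4 genes of each list with the largest WT change among those called were named; 1 of them is not reported here. Members, lists and tests were chosen with earlier results of these data known. Alternatives covered background correction, normalization, filter, probe choice, slide, replicate block and leaving out each array. No values of other samples were present in the tables.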

Additional observations from a re-analysis of the deposited data

How the results depend on the processing

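No sign of a called AP-1 difference turned under any alternative, and no AP-1 gene was called between KO and WT, or in the difference of the LPS responses, under any of them. The count of AP-1 genes called for the LPS response, 3 in WT and 2 in KO, moved. In WT it was 0 with normexp background correction, 0 with no filter on dim probes and 0 with the slide as a block. In KO it was 1 with the slide as a block and 0 within slide 2. Leaving out each array in turn gave 0 to 3 in WT and 0 to 4 in KO, and 7 to 8 for the mean of both genotypes, where the slide as a block gave 5 and normexp 6. With the replicate block, which pairs samples by number, it was 6 in each genotype and 9 for the mean. That block added calls for Fos in KO (adjusted p = 0.00892), for Fosb (0.0264 in WT and 0.0257 in KO), for Batf (0.0413 and 0.0472) and for Maff (0.00430 and 0.00222), and took the SE of Batf3 from 0.73 to 0.22 without a call. Deviations of same-numbered arrays correlated at 0.13 to 0.69 in 5 pairs of groups and at 0.01 in the other, WT unstimulated with KO LPS. The labels give the number no meaning, and whether it marks a shared day or culture was not settled, so the values without the block are the ones reported. Normexp as planned was drawn by aberrant spots on 2 arrays. Without them, an alternative added after the data were seen, it gave 3 in WT and 3 in KO; as planned, it turned the sign of 3 uncalled KO responses, among them Fosb (0.25) and Junb (-0.12). Within slides, the mean of both states or genotypes and the difference of the LPS responses could not be fitted. The 2 arrays of each group and dim signals, as for Fosl1 and Fosb, limit what could be detected.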
